A study of Homo sapiens with 12 samples.

Results

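The genes described here are 9 brakes on mitogen-activated protein (MAP) kinase signalling: the phosphatases DUSP1, DUSP2, DUSP4, DUSP5, DUSP6, DUSP10 and DUSP16, and the upstream inhibitors SPRY2 and SPRED1. They were found by matching gene symbols to the Ensembl IDs of the count table, which gave 9 of 57992 rows, and all 9 had enough counts to be tested (230 to 9874 counts per library). RNA was sequenced from iMGLs, which are microglia-like cells induced from the human pluripotent stem cell line H1 to resemble the resident macrophages of the brain. WT is the group without the knockout that the labels give as control, and KO is the MEF2C knockout under the same control condition, with 3 libraries each. WT LPS and KO LPS are the same genotypes treated with lipopolysaccharide (LPS), a bacterial cell wall component sensed through TLR4, with 2 libraries each. KO LPS BMS, also 2 libraries, is KO treated with LPS and with BMS265246, which the series title places among CDK2 inhibitors. All groups share the H1 background, and no group held WT cells with the compound or the compound without LPS. The dose and duration of either agent, the kind of edit and the number of edited clones are not stated in the labels.

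MAP kinases are the last step of a relay in which a MAP3K phosphorylates a MAP2K, and the MAP2K phosphorylates ERK, JNK or p38 on a threonine and a tyrosine. Dual-specificity phosphatases of the MAP kinase phosphatase class remove both phosphates, and many of their genes are themselves switched on by the pathway, so that they form a feedback loop. SPRY2 acts further up, between growth factor receptors and RAS, and SPRED1 brings the RAS inhibitor neurofibromin to the membrane. In macrophages and microglia, TLR4 starts this relay through the MAP3Ks TAK1 and TPL2, and DUSP1 in particular is known to limit p38 activity and cytokine output after LPS.

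Promoter sequences were taken from RefSeq (GRCh38.p14), in which 7 of the 9 genes matched by symbol, all but DUSP4 and DUSP5. The windows of DUSP1, DUSP2 and SPRED1 are shown because the data set them against each other: the first pair had lower levels with BMS265246 and SPRED1 a higher one. Each window runs from 250 bases before to 50 bases after the start of transcription and is written 5′ to 3′ along the gene. Capitals mark a full cyclic AMP response element (CRE, TGACGTCA) and a TATA box (TATAAA). The DUSP1 and DUSP2 windows lie on the minus strand at chr5:172771146-172771445 and chr2:96145391-96145690, and the SPRED1 window on the plus strand at chr15:38252586-38252885.
DUSP1: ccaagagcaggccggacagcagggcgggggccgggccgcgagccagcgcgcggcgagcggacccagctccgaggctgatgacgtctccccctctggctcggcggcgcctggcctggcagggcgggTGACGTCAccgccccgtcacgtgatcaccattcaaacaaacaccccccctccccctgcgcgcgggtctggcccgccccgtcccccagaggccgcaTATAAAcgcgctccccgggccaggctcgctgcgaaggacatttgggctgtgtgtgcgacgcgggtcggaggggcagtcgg
DUSP2: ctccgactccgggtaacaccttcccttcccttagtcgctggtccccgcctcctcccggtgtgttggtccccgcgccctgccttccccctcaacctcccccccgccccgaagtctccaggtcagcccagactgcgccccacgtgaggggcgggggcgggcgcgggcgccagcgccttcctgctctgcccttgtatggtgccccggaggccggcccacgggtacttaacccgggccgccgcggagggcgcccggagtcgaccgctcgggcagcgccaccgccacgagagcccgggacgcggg
SPRED1: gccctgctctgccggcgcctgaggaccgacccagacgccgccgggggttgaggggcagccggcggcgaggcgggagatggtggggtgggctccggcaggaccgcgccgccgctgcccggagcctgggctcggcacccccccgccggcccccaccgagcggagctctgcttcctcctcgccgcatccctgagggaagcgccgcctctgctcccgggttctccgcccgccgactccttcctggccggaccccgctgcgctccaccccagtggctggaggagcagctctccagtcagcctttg

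The DUSP1 window held a CRE starting 125 bases before the start site (position -125) and a TATA box at -30, and no other searched window of the 7 genes held either. Over both strands, 1.84% of 34943 promoters of the same length held a CRE and 11.6% held TATAAA, a motif added after the first results were seen. The shorter CRE core TGACG, which the full CRE contains, was found in DUSP1, DUSP10 and SPRY2, and in 24.5% of all promoters. Several windows were searched for DUSP10 and for SPRY2, so a count by gene cannot be set directly against this share of windows. No window of the 7 genes held the AP-1 site (TGACTCA, or TGAGTCA on the opposite strand, 4.96% of promoters), the ETS site CCGGAAGT (4.11%) or the classical kappaB site (0.189%). The NF-kB consensus (5.90%), the CArG box (1.30%) and the MEF2 consensus (3.00%) were likewise not found in them. A match describes letters in the window and nothing more, and these counts say nothing of sites farther away.

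Library totals ranged from 13888283 to 17639136 counts, and a level is given in CPM, a library's counts brought to a common total after scaling by the TMM method. A count of 0 allowed 0.154 to 0.236 CPM, for counting error only. The counts of the KO LPS pair differed most (chi-square per degree of freedom 11.1, against 2.05 to 6.88 for the other replicate pairs). MEF2C, the targeted gene, stood at 193, 183 and 177 CPM in WT and at 136, 129 and 135 CPM in KO, so its transcript was lower but still counted (log2 fold change -0.47 ± 0.05, SE; edgeR adjusted p = 4.00e-07), and a count over the whole gene cannot show the edit itself. With LPS it stood at 49.6 and 51.6 CPM in WT, 45.9 and 46.8 CPM in KO and 43.7 and 44.1 CPM in KO LPS BMS, and the genotypes did not differ by the test there (-0.13 ± 0.07, adjusted p = 0.187). Markers of microglia and macrophages summed to 9300 to 10700 CPM in every library, and CD68 among them held only 0 to 4 counts. The sum does not show changes of single markers. Of 16 tested, 3 were higher and 6 lower in KO than in WT, beside 10.2% and 11.4% of all genes. With LPS in WT, 2 rose and 6 fell (28.9% and 30.8% of all genes), among the latter P2RY12, from a mean of 15.1 to 1.81 CPM. With LPS in KO, 4 rose and 5 fell (24.5% and 20.3%). Of the same 16, 6 were higher and 5 lower in KO LPS than in WT LPS (15.6% and 15%). The compound left 10 higher and 5 lower than in KO LPS (22.3% and 25.5%). The 6 pluripotency markers summed to at most 0.618 CPM. Endothelial markers summed to 7.83 to 10.2 CPM in WT, 22.7 to 23.2 in KO, 4 to 5.58 in WT LPS, 16.3 to 21.5 in KO LPS and 19.1 to 21.6 in KO LPS BMS. The 8 granulocyte and mast cell markers summed to 336 to 350, 409 to 422, 379 to 387, 484 to 509 and 555 to 567 CPM in the same order. Each of these 2 lists had 3 of its 5 tested genes higher in KO than in WT, beside 10.2% of all genes. In the endothelial list they were CDH5, VWF and EGFL7 (group means of 1.11, 1.55 and 5.92 CPM in WT and 3.88, 2.72 and 15.6 CPM in KO). In the other they were CPA3, HDC and TPSAB1 (144, 139 and 5.57 CPM in WT and 175, 174 and 9.92 CPM in KO). The endothelial genes KDR and TEK were not called (log2 fold changes of 0.27 and 0.61). Neither were CEACAM8 and EPX of the other list (-0.55 and 0). CLDN5, ELANE and MPO had group means of at most 0.211 CPM. Haematopoietic progenitor markers summed to 140 to 146 CPM in WT, 160 to 176 in KO, 125 to 150 in WT LPS, 179 to 229 in KO LPS and 226 to 245 in KO LPS BMS, with KIT called higher in KO among 4 tested. The platelet gene PPBP was also higher in KO (3.16 ± 0.41, adjusted p = 4.72e-06), at a mean of 1.45 CPM beside 0.157 CPM. Mesenchymal markers varied widely between resting replicates, with sums of 10.1 to 26.9 CPM in WT and 18 to 59 CPM in KO. None of the 4 tested was called in KO against WT. Markers of neurons and other glia summed to 143 to 155 CPM in WT and 124 to 139 in KO. Most of this was MBP, at means of 144 CPM in WT and 127 CPM in KO (-0.18 ± 0.06, adjusted p = 0.0246). OLIG2 of the same list was higher in KO (0.50 ± 0.15, adjusted p = 0.022), and SNAP25, the other gene tested, was not called. In KO LPS against WT LPS, 4 of the 5 tested endothelial genes were higher, as were 4 of the 5 granulocyte and mast cell genes (15.6% of all genes). Genes of these lists therefore moved with genotype, and microglia and macrophage markers also with LPS and with the compound. Not all went in the same direction, and the part of these genes in the differences below was not tested. In such bulk RNA, fewer cells of a type and less RNA per cell cannot be told apart.

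Without LPS, the knockout was set against WT to see how resting cells of these groups differed, and 7 of the 9 genes did. DUSP4, DUSP6 and SPRY2 were higher in KO, and DUSP1, DUSP2, DUSP10 and DUSP16 were lower. DUSP5 and SPRED1 did not pass the test, edgeR's quasi-likelihood F test with a threshold of 0.05 on the Benjamini-Hochberg adjusted p. Of the 16022 genes tested, 21.6% were called in this comparison, 10.2% as higher and 11.4% as lower. The libraries of the groups did not overlap for 4 genes that were higher and 4 that were lower, beside 40.4% of all genes in either direction. The median log2 fold change of the 9 genes was -0.08, beside -0.02 for all genes tested. With LPS in WT cells, DUSP1, DUSP2, DUSP4, DUSP5, DUSP6, DUSP16 and SPRED1 rose, SPRY2 fell, and DUSP10 did not pass; 59.7% of all tested genes were called, 28.9% as higher and 30.8% as lower. The groups did not overlap for 7 of the genes on the high side and 1 on the low side, as for 72.3% of all genes in either direction. Their median was 0.63, beside -0.07 for all genes. With LPS in KO cells, DUSP1, DUSP2, DUSP4, DUSP5, DUSP6 and DUSP16 rose and SPRY2 fell, while DUSP10 and SPRED1 did not pass. Here 44.8% of all genes were called, 24.5% as higher and 20.3% as lower, and the medians were 0.75 for the 9 genes and 0 for all. The groups did not overlap for 7 and 1 of the genes, and for 62% of all genes.

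**Figure D1:**
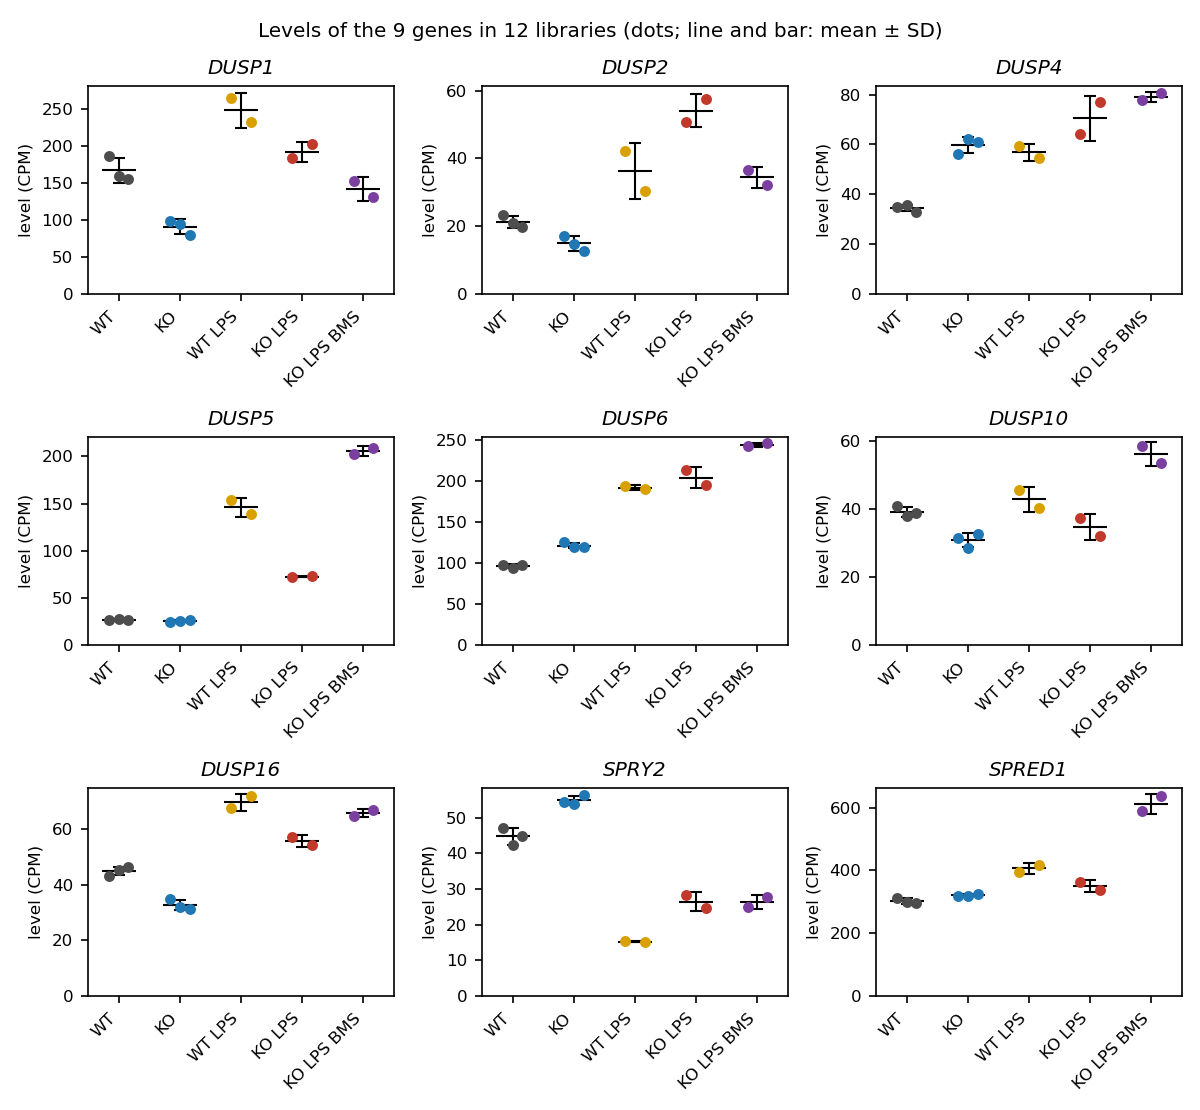
Levels in CPM (vertical axes, each starting at 0) of the 9 genes in the 5 groups, with 1 dot per library and the group mean ± SD as a line and bar. DUSP5 runs from 23.9 to 28.0 CPM in the libraries without LPS to 202 and 209 CPM in KO LPS BMS, and SPRY2 is lower in every library with LPS.

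Among all 9 genes, per kilobase of exon, DUSP1 had the highest level in WT, at 82.6 ± 8.28 CPM per kilobase (SD, n = 3), followed by SPRED1 at 36.6 ± 1.09 and DUSP6 at 20.7 ± 0.499. SPRY2 (14.7 ± 0.812), DUSP10 (13.4 ± 0.507), DUSP2 (11 ± 0.918) and DUSP5 (10.2 ± 0.415) followed, with DUSP16 (7.84 ± 0.277) and DUSP4 (4.75 ± 0.192) lowest. The WT ranges of SPRY2 and DUSP10 overlapped, as did those of DUSP2 and DUSP5. In KO LPS BMS the top of the list read differently: DUSP5 stood at 78.6 ± 1.98 CPM per kilobase (SD, n = 2), SPRED1 at 74.1 ± 4.01 and DUSP1 at 70.3 ± 7.91. The ranges of SPRED1 and DUSP1 overlapped. Exon lengths came from GENCODE release 29.

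DUSP1 (chromosome 5, 172768090 to 172771195, minus strand, GRCh38) encodes a nuclear phosphatase of p38 and JNK. It stood at 186, 159 and 155 CPM in WT and at 98.7, 94.8 and 79.3 CPM in KO. Every KO library was below every WT library, a 1.83-fold lower level (log2 fold change -0.88 ± 0.10, edgeR adjusted p = 7.32e-05). With LPS it reached 265 and 232 CPM in WT and 183 and 202 CPM in KO. The rise was 1.49-fold in WT (adjusted p = 0.000821) and 2.12-fold in KO (adjusted p = 9.10e-06). The 2 KO LPS libraries stayed below both WT LPS libraries (-0.37 ± 0.12, adjusted p = 0.0415), a call that was lost on leaving out any 1 of the 4 libraries (adjusted p = 0.0691 to 0.233). The difference between the 2 LPS responses, 0.51 ± 0.16, missed the threshold (adjusted p = 0.0651), and it passed in 6 of 18 alternative fits, DESeq2 among them (0.46, adjusted p = 0.0136). With the compound the level was 153 and 131 CPM, below both KO LPS libraries (-0.44 ± 0.12, adjusted p = 0.0128). That fall was no longer called without KO LPS replicate 2 (adjusted p = 0.0827) or without KO LPS BMS replicate 2 (0.0975). From lowest to highest the groups ran KO, KO LPS BMS, WT, KO LPS and WT LPS, and only the ranges of WT and KO LPS overlapped among neighbours.

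DUSP2 (chromosome 2, 96143166 to 96145440, minus strand), a nuclear phosphatase found mainly in immune cells, stood at 23.2, 20.8 and 19.7 CPM in WT and at 17.2, 14.8 and 12.7 CPM in KO. The groups did not overlap (-0.52 ± 0.13, adjusted p = 0.0120), although the call was lost without WT replicate 1 (adjusted p = 0.0554) or without KO replicate 3 (0.0519). With LPS the order of the genotypes turned: 42.1 and 30.5 CPM in WT LPS against 50.6 and 57.6 CPM in KO LPS. The rise with LPS was 1.71-fold in WT and 3.65-fold in KO, and the difference between the responses was 1.10 ± 0.20 on the log2 scale (adjusted p = 0.00247). It was called in all 18 alternative fits of that difference, with values of 0.89 to 1.35. KO LPS against WT LPS gave 0.58 ± 0.15 (adjusted p = 0.00791), lost without WT LPS replicate 2 (0.36, adjusted p = 0.0725) or without KO LPS replicate 2 (0.48, adjusted p = 0.0610). In KO LPS BMS the level was 36.6 and 32.2 CPM, 1.58-fold lower than in KO LPS (-0.66 ± 0.15, adjusted p = 0.00200) and called in all 14 alternatives. The levels of KO LPS BMS and WT LPS overlapped.

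DUSP4 (chromosome 8, 29333064 to 29350668, minus strand), a nuclear phosphatase of ERK and JNK, went the other way in resting cells. It stood at 34.7, 35.8 and 33.0 CPM in WT and at 56.1, 62.1 and 60.9 CPM in KO. This was a 1.73-fold higher level in KO with no overlap (0.79 ± 0.07, adjusted p = 1.74e-08), called in all 14 alternatives. LPS brought WT to 59.3 and 54.5 CPM, a range that overlapped resting KO, and KO to 64.2 and 76.8 CPM. The rise was therefore 1.65-fold in WT (adjusted p = 5.74e-08) and 1.18-fold in KO (adjusted p = 0.0145). The KO rise was not called without KO replicate 1 (adjusted p = 0.0682) or without KO LPS replicate 2 (0.353). With library sizes alone as the scaling it was -0.02 (adjusted p = 0.872), under which the median of all genes also moved, by -0.25. The difference between the responses, -0.49 ± 0.11, was called (adjusted p = 0.00542) and remained so in all 18 alternatives. The gap between KO LPS and WT LPS was 0.31 ± 0.08 (adjusted p = 0.00848), lost without WT LPS replicate 2 (adjusted p = 0.0958) or without KO LPS replicate 2 (0.224), and in a fit of these 4 libraries alone (0.0921). With BMS265246 the libraries held 77.6 and 80.5 CPM, just above the KO LPS pair, and the difference of 0.17 (95% interval 0.00 to 0.33) did not pass (adjusted p = 0.108). It passed without KO LPS replicate 2 (0.30, adjusted p = 0.00955).

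DUSP5 (chromosome 10, 110497838 to 110511544, plus strand) encodes a nuclear phosphatase that binds ERK and holds it there. In resting cells the ranges of the genotypes overlapped, at 26, 28.0 and 26.3 CPM in WT and 23.9, 25.5 and 26.6 CPM in KO (-0.08, 95% interval -0.21 to 0.05, adjusted p = 0.455). LPS raised it to 154 and 139 CPM in WT and to 72.4 and 72.9 CPM in KO. The rise was 5.46-fold in WT (2.45 ± 0.07, adjusted p = 1.39e-18) and 2.86-fold in KO (1.52 ± 0.07, adjusted p = 2.83e-14). KO LPS stood 2.01-fold below WT LPS (-1.01 ± 0.07, adjusted p = 4.72e-10). The difference between the responses was -0.93 ± 0.10 (adjusted p = 1.46e-06), between -1 and -0.85 in all 18 alternatives and called in each. In KO LPS BMS the level was 202 and 209 CPM, above every other library of the study. That was 2.83-fold over KO LPS (1.5 ± 0.07, adjusted p = 3.71e-13; 1.42 to 1.54 in 14 alternatives) and 8.11-fold over resting KO. The groups ranked KO, WT, KO LPS, WT LPS and KO LPS BMS, with overlap only between the first pair.

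DUSP6 (chromosome 12, 89347232 to 89353271, minus strand) encodes a cytoplasmic phosphatase that is selective for ERK. It stood at 97.5, 93.3 and 97.0 CPM in WT and at 125, 120 and 119 CPM in KO, a small and non-overlapping difference (0.34 ± 0.05, adjusted p = 2.79e-05). With LPS the genotypes were close, at 194 and 190 CPM in WT and 213 and 195 CPM in KO (0.09, 95% interval -0.03 to 0.21, adjusted p = 0.304). The rise was 2.00-fold in WT and 1.68-fold in KO, both called. The difference between them, -0.25 ± 0.08, was called at an adjusted p of 0.0401 and lost in 10 of 18 alternatives. KO LPS BMS held 243 and 246 CPM, the highest libraries for this gene and 1.20-fold over KO LPS (0.26 ± 0.06, adjusted p = 0.00119). An antisense gene on the opposite strand shares 1875 exon bases with DUSP6, and it held at most 0.222% as many counts as DUSP6 in any library. The labels do not state whether counting used the strand.

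**Figure D2:**
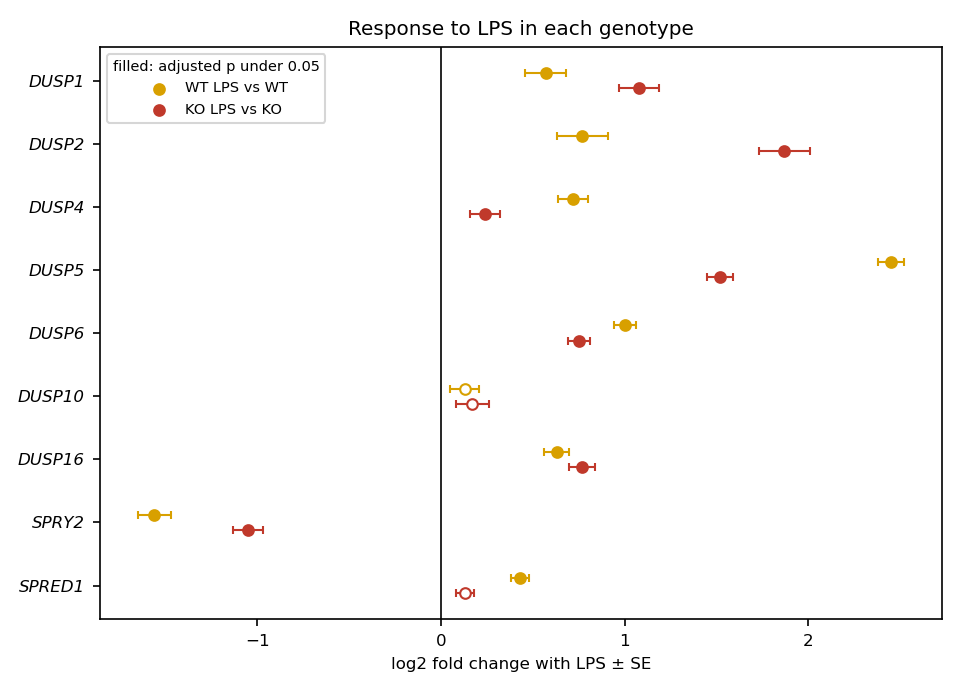
log2 fold change with LPS (horizontal axis, ± SE) of each gene in WT (yellow) and KO cells (red), filled where the adjusted p is under 0.05. DUSP5 shows 2.45 in WT and 1.52 in KO, DUSP2 the reverse order at 0.77 and 1.87, and SPRY2 is the 1 gene to the left of 0.

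DUSP10 and DUSP16 encode phosphatases that act on JNK and p38. DUSP10 (chromosome 1, 221701424 to 221742176, minus strand) stood at 40.8, 37.9 and 38.8 CPM in WT and 31.6, 28.6 and 32.6 CPM in KO, lower in all KO libraries (-0.34 ± 0.08, adjusted p = 0.00218). LPS gave no called change in either genotype. WT LPS held 45.5 and 40.3 CPM and KO LPS held 37.5 and 32.2 CPM, both overlapping their controls (0.13, 95% interval -0.03 to 0.30 in WT; 0.17, 0.00 to 0.35 in KO). The KO value passed without KO LPS replicate 2 (0.28, adjusted p = 0.0285), and the 2 responses differed by 0.04 ± 0.12 (adjusted p = 0.867). KO LPS was below WT LPS (-0.30 ± 0.09, adjusted p = 0.0204), but not without WT LPS replicate 1 (adjusted p = 0.165), without KO LPS replicate 2 (0.237) or in a fit of these 4 libraries alone (0.1). BMS265246 was the condition in which DUSP10 stood apart, at 58.6 and 53.7 CPM, 1.61-fold over KO LPS (0.69 ± 0.09, adjusted p = 3.52e-06) and above the other 10 libraries.

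DUSP16 (chromosome 12, 12474210 to 12562383, minus strand) stood at 43.1, 45.4 and 46.2 CPM in WT and 34.7, 32.1 and 31.3 CPM in KO. The KO level was lower without overlap (-0.46 ± 0.06, adjusted p = 9.90e-06). It rose with LPS to 67.4 and 71.7 CPM in WT and 57.1 and 54.1 CPM in KO, by 1.55-fold and 1.7-fold. The KO libraries thus stayed below the WT ones with LPS (-0.32 ± 0.07, adjusted p = 0.00227), and the 2 responses differed by 0.14, with a 95% interval from -0.06 to 0.33 (adjusted p = 0.404). The compound gave 64.8 and 66.7 CPM (0.24 ± 0.08, adjusted p = 0.0111). This last call was lost without KO LPS replicate 2 (adjusted p = 0.0784), without KO LPS BMS replicate 2 (0.0714) and with library sizes alone as the scaling (0.106).

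**Figure D3:**
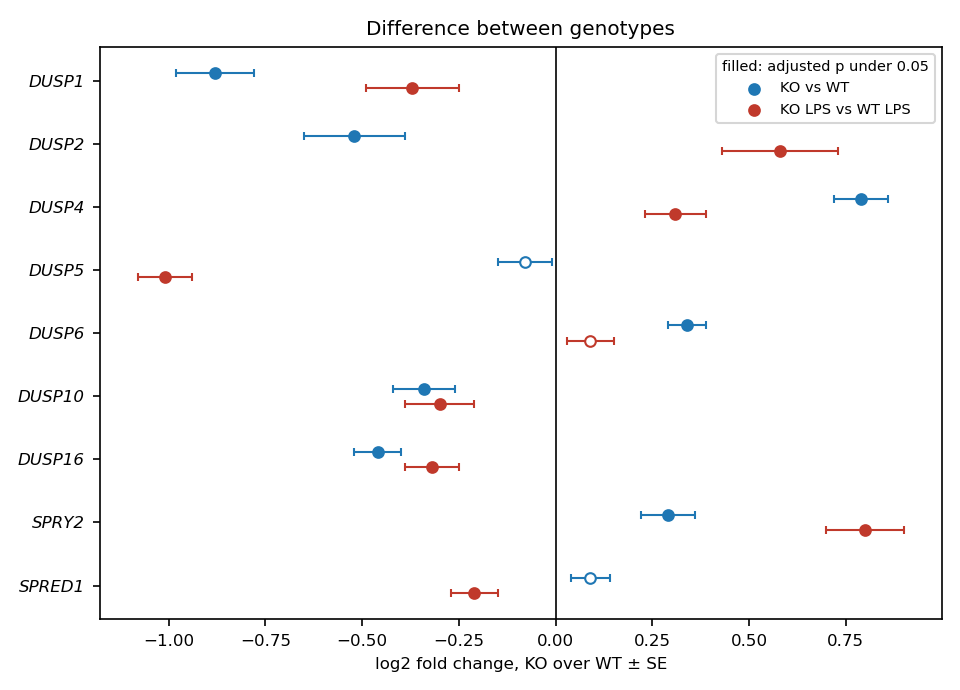
log2 fold change of KO over WT (horizontal axis, ± SE) for each gene without LPS (blue) and with LPS (red), filled where the adjusted p is under 0.05. DUSP2 lies at -0.52 without and 0.58 with LPS, and DUSP5 at -0.08 and -1.01.

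SPRY2 (chromosome 13, 80335976 to 80340951, minus strand) was the gene of this group that fell with LPS. It stood at 47.2, 42.3 and 45 CPM in WT and at 54.3, 54.0 and 56.3 CPM in KO, slightly higher in each KO library (0.29 ± 0.07, adjusted p = 0.00286). With LPS it was at 15.3 and 15.1 CPM in WT, 2.95-fold lower (-1.56 ± 0.09, adjusted p = 1.12e-12), and at 28.3 and 24.6 CPM in KO, 2.07-fold lower (-1.05 ± 0.08, adjusted p = 5.04e-10). KO LPS therefore stood 1.74-fold above WT LPS (0.80 ± 0.10, adjusted p = 2.81e-06), called in all 14 alternatives. The fall was smaller in KO by 0.51 ± 0.12 (adjusted p = 0.00790), not called without KO LPS replicate 1 (0.37, adjusted p = 0.0580). With BMS265246 the level was 25.1 and 27.8 CPM, overlapping KO LPS (0.00, 95% interval -0.18 to 0.19, adjusted p = 0.990).

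SPRED1 (chromosome 15, 38252326 to 38357249, plus strand) differed little between the genotypes at rest. It stood at 312, 298 and 296 CPM in WT and 318, 320 and 324 CPM in KO (0.09, 95% interval -0.01 to 0.18, adjusted p = 0.222), a small gap without overlap that did not pass. A fit of these 2 groups alone called it (0.11, adjusted p = 0.0284). WT LPS held 395 and 419 CPM, a 1.35-fold rise (adjusted p = 3.60e-07), and KO LPS held 364 and 338 CPM (0.13 ± 0.05, adjusted p = 0.0560), which passed without KO LPS replicate 2 (0.19, adjusted p = 0.0216). The responses differed by -0.30 ± 0.08 (adjusted p = 0.0108), not called without WT LPS replicate 2 (adjusted p = 0.0584) or without KO LPS replicate 2 (0.0742). KO LPS stood at -0.21 ± 0.06 against WT LPS (adjusted p = 0.00822), also lost without either of these 2 libraries (0.0762 and 0.105) and in a fit of the 4 libraries alone (0.0918). KO LPS BMS held 589 and 636 CPM, 1.74-fold over KO LPS (0.80 ± 0.06, adjusted p = 4.05e-10) and above all other libraries. The value was between 0.72 and 0.90 and called in all 14 alternatives.

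Set side by side with LPS present, DUSP2, DUSP4 and SPRY2 were higher in KO than in WT, DUSP1, DUSP5, DUSP10, DUSP16 and SPRED1 were lower, and DUSP6 did not pass (30.6% of all genes called, 15.6% higher and 15% lower; medians -0.21 for the 9 genes and 0.03 for all). The libraries of these groups of 2 did not overlap for 4 of the genes on the high side and 5 on the low side, and for 59.9% of all genes. The LPS response itself differed between genotypes for 6 of the 9 genes (12% of all genes called, 6.42% with a positive and 5.57% with a negative difference). It was larger in KO for DUSP2, smaller in KO for DUSP4, DUSP5, DUSP6 and SPRED1, and for SPRY2 the fall was smaller. These comparisons share the LPS libraries, so their values are not independent of each other.

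BMS265246 was tested in KO cells with LPS, which asks how the compound shifted an LPS-treated knockout. DUSP5, DUSP6, DUSP10, DUSP16 and SPRED1 were higher with it, DUSP1 and DUSP2 were lower, and DUSP4 and SPRY2 did not pass (47.8% of all genes called, 22.3% higher and 25.5% lower). The groups of 2 did not overlap for 6 and 2 of the genes, and for 70.4% of all genes. The median of the 9 genes was 0.24, beside -0.04 for all genes. Against resting KO cells, LPS and compound together left 8 of the 9 genes higher and SPRY2 lower (62.7% of all genes called, 30.3% higher and 32.4% lower; medians 0.93 and -0.06), and no gene of the 9 overlapped between these groups, beside 76.2% of all genes without overlap. For DUSP1, KO LPS BMS remained 1.56-fold above resting KO (adjusted p = 0.000446) and for DUSP2 2.32-fold (adjusted p = 4.03e-06). DUSP4 was 1.32-fold higher than in resting KO (adjusted p = 8.50e-05), a call lost with library sizes alone (0.07, adjusted p = 0.439). KO LPS is the reference for the compound and the treated group of the LPS comparison, so those 2 sets of values share libraries. Nothing in the design separates an effect of the compound on the knockout from one on WT cells.

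**Figure D4:**
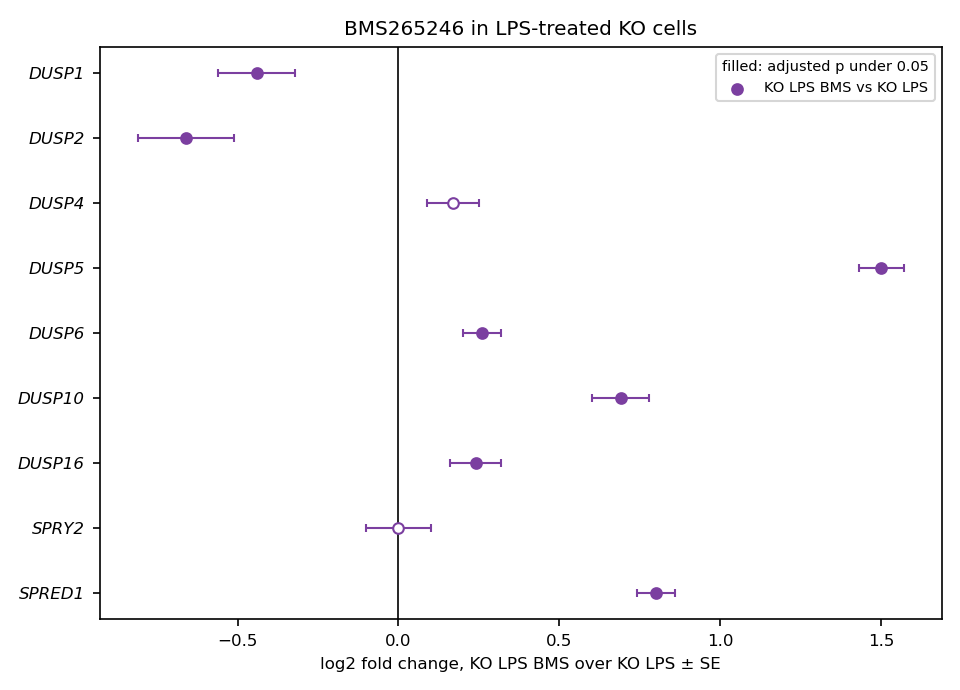
log2 fold change of KO LPS BMS over KO LPS (horizontal axis, ± SE) for each gene, filled where the adjusted p is under 0.05. DUSP5 (1.5), SPRED1 (0.80) and DUSP10 (0.69) lie farthest right, and DUSP2 (-0.66) and DUSP1 (-0.44) lie left of 0.

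Further phosphatases that act on MAP kinases were counted from a list of 13. Of 11 tested, 1 was higher and 1 lower in KO, beside 10.2% and 11.4% of all genes. With LPS 3 rose and 3 fell in WT (28.9% and 30.8% of all genes), and 2 rose and 2 fell in KO (24.5% and 20.3%). The counts in resting KO and with LPS in WT were thus close to those of all genes. With the compound 1 rose and 5 fell (22.3% and 25.5% of all genes), with a median of -0.35 beside -0.04 for all genes. DUSP8, a phosphatase of JNK and p38, was the 1 that rose: it held 1.74 and 2.67 CPM in KO LPS and 8.35 and 9.27 CPM in KO LPS BMS (2.00 ± 0.28, adjusted p = 4.38e-06), and 0.103 to 0.452 CPM in the 6 libraries without LPS. DUSP3, a small atypical phosphatase of ERK and JNK, held 114 and 112 CPM in KO LPS and 55.9 and 53.9 CPM with the compound (-1.04 ± 0.06, adjusted p = 2.08e-11). It stood between 111 and 117 CPM in every library without it. PTPN7, a tyrosine phosphatase of ERK and p38 in blood cells, fell with LPS from 243, 259 and 251 CPM to 150 and 132 CPM in WT (-0.83 ± 0.06). In KO it fell from 276, 286 and 283 CPM to 202 and 219 CPM (-0.42 ± 0.06), and the responses differed by 0.41 ± 0.09 (adjusted p = 0.00326).

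SPRY2 had relatives that moved in the opposite direction with LPS. Of the 5 other Sprouty and SPRED genes tested, 4 rose and none fell in WT (28.9% and 30.8% of all genes), with a median of 1.56. The counts were the same in KO (24.5% and 20.3%), with a median of 0.79. SPRY1 rose from 5.13, 4.89 and 3.35 CPM to 14.6 and 15.6 CPM in WT (1.76 ± 0.14, adjusted p = 5.88e-10). SPRY4 stood at 1.89, 2.78 and 2.68 CPM in WT and at 7.03, 7.72 and 8.81 CPM in resting KO (1.68 ± 0.16, adjusted p = 2.98e-08). LPS took SPRY4 to 8.97 and 9.38 CPM in WT and 12.6 and 14.6 CPM in KO, a response smaller in KO by 1.11 on the log2 scale (-1.11 ± 0.22, adjusted p = 0.00182). SPRED2 rose with LPS (0.91 ± 0.07 in WT, 0.66 ± 0.07 in KO) and rose further with the compound, from 55.0 and 58.1 CPM to 80.4 and 82.3 CPM (0.52 ± 0.08, adjusted p = 1.06e-05). SPRY3, at 1.18 to 3.45 CPM in all libraries, was the 1 that fell with it (-0.75 ± 0.27, adjusted p = 0.0287).

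**Figure D5:**
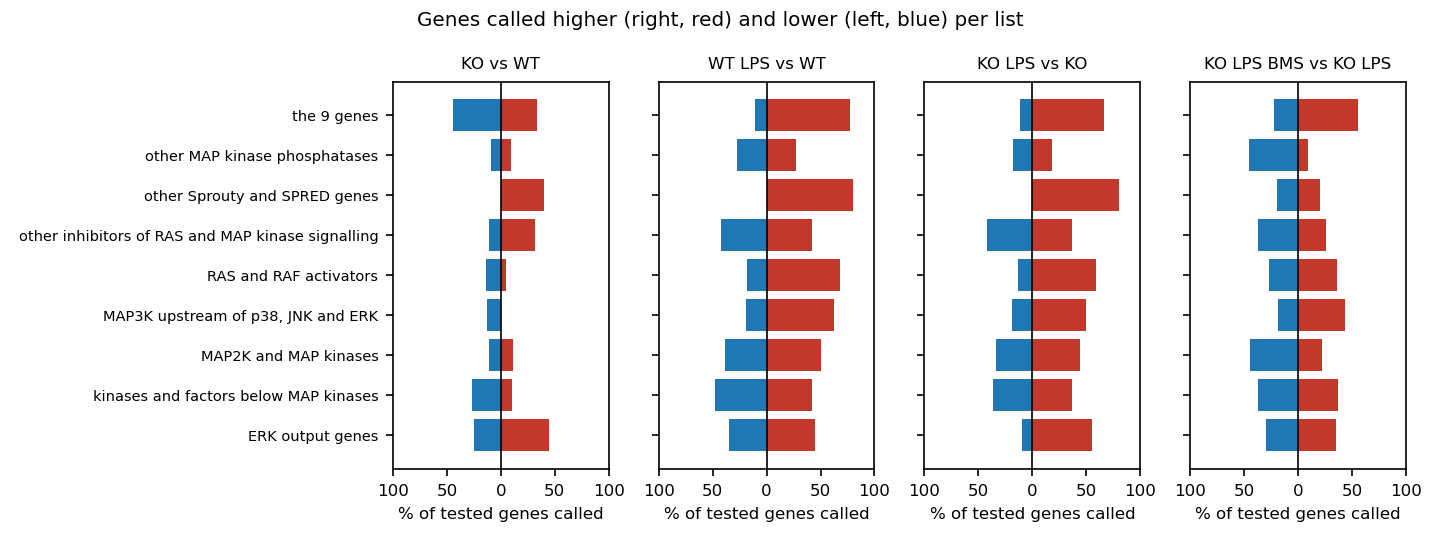
Percent of the tested genes of each list that were called higher (right, red) or lower (left, blue) in 4 comparisons. With LPS 15 of 22 RAS and RAF activators rose in WT and 13 of 22 in KO, and with the compound 5 of 11 other phosphatases fell.

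Of 19 tested other inhibitors of the RAS to MAP kinase relay, 6 were higher and 2 lower in KO, beside 10.2% and 11.4% of all genes. With LPS 8 rose and 8 fell in WT (28.9% and 30.8% of all genes), and 7 rose and 8 fell in KO (24.5% and 20.3%). With the compound 5 rose and 7 fell (22.3% and 25.5%), and the median of 0 lay near the -0.04 of all genes. NF1, which encodes the neurofibromin that SPRED1 recruits, held 111 CPM in each KO library and 162 and 145 CPM in KO LPS (0.47 ± 0.07, adjusted p = 6.96e-06). RASAL1, which encodes a protein that likewise switches RAS off, fell with LPS by 2.56 on the log2 scale in WT (-2.56 ± 0.11) and by 1.94 in KO (-1.94 ± 0.12).

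Of the activators on which these brakes act, 15 of 22 rose and 4 fell with LPS in WT (28.9% and 30.8% of all genes), and 13 rose and 3 fell in KO (24.5% and 20.3%). RASGRP1, an exchange factor that loads RAS with GTP, held 4.11, 4.68 and 4.27 CPM in WT and 184 and 193 CPM in WT LPS (5.43 ± 0.08). In KO it went from 2.39, 2.57 and 2.69 CPM to 115 and 115 CPM (5.49 ± 0.09). NRAS rose by 1.31 ± 0.06 in WT and 0.95 ± 0.06 in KO. Among MAP3Ks and their partners, 10 of 16 rose and 3 fell in WT, and 8 rose and 3 fell in KO, beside the same shares of all genes. MAP3K8, which encodes TPL2, the kinase that carries the TLR4 signal to ERK, held 33.8, 32.0 and 35.3 CPM in WT and 109 and 102 CPM in WT LPS (1.65 ± 0.07). In KO LPS it held 106 and 124 CPM, and the compound took it to 219 and 208 CPM (0.90 ± 0.08, adjusted p = 3.05e-09). Of 18 MAP2K and MAP kinase genes, 9 rose and 7 fell with LPS in WT, both above the shares of all genes. MAP2K6, a kinase of p38, fell from 9.30, 7.87 and 8.44 CPM to 0.997 and 0.751 CPM (-3.28 ± 0.22), and in KO from 8.78, 9.56 and 9.30 CPM to 2.19 and 2.60 CPM (-1.94 ± 0.18). With the compound 4 of the 18 rose and 8 fell (22.3% and 25.5% of all genes), among the latter NLK, from 38.8 and 37.8 CPM to 17.3 and 17.8 CPM (-1.13 ± 0.09).

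Of 19 tested kinases and factors that act below the MAP kinases, 2 were higher and 5 lower in KO, beside 10.2% and 11.4% of all genes. With LPS 8 rose and 9 fell in WT (28.9% and 30.8% of all genes), and 7 rose and 7 fell in KO (24.5% and 20.3%). The medians of -0.05 and -0.01 lay near those of all genes, -0.07 and 0. The compound gave 7 higher and 7 lower (22.3% and 25.5%), among the latter RPS6KA1, a ribosomal S6 kinase activated by ERK (-0.74 ± 0.06).

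Of 20 genes known as outputs of ERK, 9 were higher and 5 lower in resting KO, beside 10.2% and 11.4% of all genes. CCND1 (cyclin D1) was at 23.9, 26.7 and 28.4 CPM in WT and 72.2, 84.8 and 77.9 CPM in KO (1.57 ± 0.07), and FOSB, an AP-1 subunit, was at 11.2, 13.3 and 9.68 CPM in WT and 2.97, 2.07 and 1.77 CPM in KO (-2.34 ± 0.18). With LPS 9 rose and 7 fell in WT (28.9% and 30.8% of all genes), and 11 rose and 2 fell in KO (24.5% and 20.3%). ETV5, an ETS factor, rose from 61.1, 63.6 and 62.3 CPM to 167 and 164 CPM in WT, and from 90.4, 89.9 and 90.0 CPM to 138 and 121 CPM in KO. Its response was smaller in KO (-0.89 ± 0.09, adjusted p = 5.52e-07). With the compound 7 of the 20 rose and 6 fell (22.3% and 25.5%). EGR1, an immediate early transcription factor, dropped from 115 and 94.1 CPM in KO LPS to 15.0 and 12.3 CPM (-2.94 ± 0.21, adjusted p = 3.47e-06), below every other library.

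Over the 12 libraries, the log2 levels of DUSP5 and DUSP6 were the closest pair among the 7 phosphatases (Pearson r = 0.921), and those of DUSP1 and DUSP4 the least alike (r = -0.117). SPRY2 ran against the rest, from r = -0.389 with DUSP4 to -0.917 with DUSP16. These are descriptions over libraries that fall into 5 groups and share scaling. Among 10579 genes compared, the ones most like each member were BTG2 (0.980) and PTPRF (0.971) for DUSP1, RELB (0.951) and ZBTB5 (0.950) for DUSP2, PARP12 (0.984) and PLPP3 (0.981) for DUSP4, and EIF3B and TANK (both 0.994) for DUSP5. For DUSP6 they were TLR2 (0.998) and BCL2A1 (0.995), for DUSP10 TMEM248 (0.959) and RPL22 (0.957), and for DUSP16 MB21D2 (0.988) and GTF2H3 (0.986). SPRY2 was most like GIMAP6 (0.993) and BTN3A1 (0.989), and SPRED1 most like CORO1C (0.994) and TOR1AIP2 (0.990).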

How the data were processed

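Per the labels' protocols, TRIzol was used for RNA extraction and a NEBNext Ultra kit for the libraries. The authors deposited 1 table of read counts per gene (whole numbers, 57992 Ensembl IDs, of which 24552 had no count). The submitters' processing notes name CASAVA 1.7, Cufflinks and GRCh38, and no aligner, counter, strand setting or annotation is given in the sources used here. Groups and replicate numbers came from the sample titles, which call the libraries biological replicates without saying what was separate, so p-values measure the spread between these samples.

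Genes were kept with filterByExpr (16022), scaled by TMM, and all 12 libraries were fitted with 1 mean per group in edgeR 4.0.16 (R 4.3.3, robust quasi-likelihood F test, 2-sided, common biological coefficient of variation 0.0635). Groups of 2 borrow their spread from all groups. P-values were Benjamini-Hochberg adjusted over all genes tested, and calls were made under 0.05. Likeness is the Pearson r of log2 CPM (prior count 2) among genes with a mean of at least 5 CPM. Alternatives were DESeq2 1.42.0, its size factors in edgeR, library sizes alone, other filters, a fit without the robust option, a replicate block, only the groups compared, and leaving out each library.

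All 9 genes were described, and from each pathway list at most the 2 called genes with the lowest adjusted p per direction and comparison, of which the text gives part. The genes and lists were chosen with earlier results of these data known. Protein sequences were not used here.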

Additional observations from a re-analysis of the deposited data

Results flagged for a closer look

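The LPS response differed between the genotypes, by the interaction test of edgeR, for 6 of the 9 genes, beside 12% of all genes tested. The differences (KO minus WT, log2) were 1.10 for DUSP2 (responses 0.77 in WT and 1.87 in KO), -0.49 for DUSP4 (0.72 and 0.24), -0.93 for DUSP5 (2.45 and 1.52) and -0.25 for DUSP6 (1.00 and 0.75). They were 0.51 for SPRY2 (-1.56 and -1.05) and -0.30 for SPRED1 (0.43 and 0.13). Of 18 alternative fits, 10 lost the call of DUSP6, 2 that of SPRED1 and 1 that of SPRY2. MEF2C itself differed by 0.34 (-1.86 and -1.52).

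The related genes below were chosen because this test called them, as at most the 2 with the lowest adjusted p per direction and list. Of 20 ERK output genes, 5 had a called positive and 3 a called negative difference. It was 2 and 0 of 11 other phosphatases and 0 and 1 of 5 other Sprouty and SPRED genes. The shares of all genes were 6.42% and 5.57%. FOSB differed by 2.43 (-2.46 and -0.03) and EGR3 by 1.42 (-1.49 and -0.07), so both fell with LPS in WT, while their KO values were near 0. DUSP7 differed by 0.64 (-0.78 and -0.14) and PTPN7 by 0.41 (-0.83 and -0.42). ETV5 differed by -0.89 (1.41 and 0.52), CCND1 by -0.51 (1.35 and 0.84) and SPRY4 by -1.11 (1.90 and 0.79), with a larger rise in WT in each case.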

How the results depend on the processing

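Of 891 values of the 9 genes recomputed, 45 lost the call, 11 gained one and 1 reversed with a call in at least 1 of the 2 fits. The other 834 kept their call or lack of one. These include values that changed sign without a call in either fit. In KO LPS vs KO, DUSP10 went from 0.17 to as low as -0.08 and SPRED1 from 0.13 to as low as -0.12. The reversal of a called value was DUSP4 in KO LPS vs KO, at -0.02 (adjusted p = 0.872) with library sizes alone. That scaling moved the median of all genes by -0.29 in WT LPS vs WT, -0.25 in KO LPS vs KO, -0.34 in KO LPS BMS vs KO and -0.08 in KO LPS BMS vs KO LPS, and LPS changes are to be read relative to it. The share of calls that were higher went from 48.4% to 26.7%, from 54.7% to 25.5%, and from 48.4% to 26.1% in the first 3 of these. For the interaction it was 53.5% in the main fit, 65.3% with library sizes alone, 43.5% with DESeq2 size factors and 42.4% with only the groups compared.

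KO LPS vs WT LPS and the interaction depended most on single libraries. With only the groups compared, KO LPS vs WT LPS called 2660 genes and 5 of the 9, against 4900 and 8. Leaving out 1 library gave 3005 to 5549 genes and 3 to 7 of the 9, with the fewest without KO LPS replicate 2 and 3138 genes and 4 of the 9 without WT LPS replicate 2. For the interaction it gave 1162 to 3079 genes (1920 in the main fit), lowest without KO LPS replicate 2 and highest without KO LPS replicate 1. The interaction calls of all 6 of the 9 genes were kept only without WT replicate 1. DUSP6 lost its call without any other WT or KO library. Leaving out an LPS library, which left 1 in its group, also lost calls in each case. SPRED1 then stood at -0.26 without WT LPS replicate 2 and -0.25 without KO LPS replicate 2. SPRY2 stood at 0.37 without KO LPS replicate 1. In the other comparisons, leaving out 1 library called 6 to 7 of the 9 genes in KO vs WT, 8 in WT LPS vs WT, 6 to 8 in KO LPS vs KO, 5 to 7 in KO LPS BMS vs KO LPS and 9 in KO LPS BMS vs KO.

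Same-numbered libraries correlated in their deviations from the group mean at -0.143 to 0.103, over 0.1 in 1 of 21 pairs. Differently numbered libraries of different groups correlated at -0.103 to 0.143. In each group with LPS the deviations of the replicates mirror each other, so many of these values repeat others with the sign changed. This check therefore cannot decide whether the replicate numbers pair the samples. With the number as a replicate block, 3091 genes were called for KO vs WT, 8973 for LPS in WT and 6562 for LPS in KO. It called 4454 between the genotypes with LPS, 1543 for the interaction, 7379 for the compound and 9551 for KO LPS BMS vs KO. In fits chosen after seeing the data, on the 4 libraries alone, the block as numbered gave 2028 genes and 3 of the 9 for KO LPS vs WT LPS and 5646 genes for the compound. It lost the calls of DUSP1, DUSP4, DUSP10, DUSP16 and SPRED1 in the first (adjusted p = 0.0694, 0.203, 0.189, 0.138 and 0.286) and of DUSP6 and DUSP16 in the second (0.0966 and 0.144). The crossed block gave 5612 and 8341 genes. The cause of these changes was not tested.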
